A study of Mus musculus with 2 samples.

Results

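The genes examined here copy the genome during S phase. They were 49 members chosen by name from what is known of DNA replication: subunits of the origin recognition complex and of the MCM helicase, the factors that load and activate it, the polymerases and primase, the sliding clamp and its loader, enzymes of nucleotide supply, the transcription factors and cyclins of S-phase entry, and factors that restore chromatin and DNA methylation behind the fork. A member was represented by the brightest probe bearing its name, and 3 of them stood in the files under older names (Orc1l, Orc6l and Cdc45l for Orc1, Orc6 and Cdc45). All 49 had a probe, 47 were measured, and the whole data set held 14879 measured genes.

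The RNA came from CD4+ T cells of C57BL/6J mice, either deficient in Lamtor1 (KO) or wild type (WT). Lamtor1 is a subunit of Ragulator, the complex that holds the growth kinase mTORC1 at the lysosome, and the series title places the work in T cell-driven autoimmunity. Naive CD4+CD62L+ cells of spleen were stimulated for 5 days with antibodies to CD3 and CD28, the growth cytokine IL-2 (50 ng/ml) and TGFβ (1 ng/ml), which both genotypes shared; how the allele was made, the number and age of the mice and the Cre used, if any, are not given in the sources used here. There was 1 RNA extract per genotype, hybridised on a pair of 2-colour Agilent arrays with the dyes exchanged, so the ± below is the technical SD of the arrays, no test across animals could be made and no p-value is given. The labels' protocols describe both extraction from naive cells and the culture, and the RNA was taken to be that of the cultured cells.

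A cell prepares for replication in G1 by loading the ring-shaped MCM helicase at origins, a step called licensing, for which the origin recognition complex, Cdc6 and Cdt1 are needed. At the start of S phase Cdc45 and the GINS complex join the ring, DNA unwinds, and primase, polymerases, clamp and ligase follow. E2F transcription factors drive many of these genes when cyclin-dependent kinases release them from the RB family, and a T cell leaving quiescence after stimulation of its receptor switches them on before dividing.

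Replication genes were broadly lower in the Lamtor1-deficient extract. Of the 47 measured members, 30 (63.8%) were at least 2-fold lower on each array and 0 were at least 2-fold higher, against 6.88% of all measured genes that were lower and 2.46% that were higher. Genes that met this rule are referred to as called; their probe also had to be clearly above background on both arrays in KO, in WT or in both. The members' median log2 ratio of KO over WT was −1.29, with quartiles of −1.75 and −0.80, while the median of all measured genes was −0.02. On both arrays 45 of the 47 lay below 0, as did 44.3% of all genes; Gins3 and Chaf1b lay above 0. With a limit of 1.5-fold, 40 members were lower (13.5% of all genes) and 1, Chaf1b, was higher. Bulk RNA does not separate fewer cells in S phase from less of each RNA per cell.

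**Figure D1:**
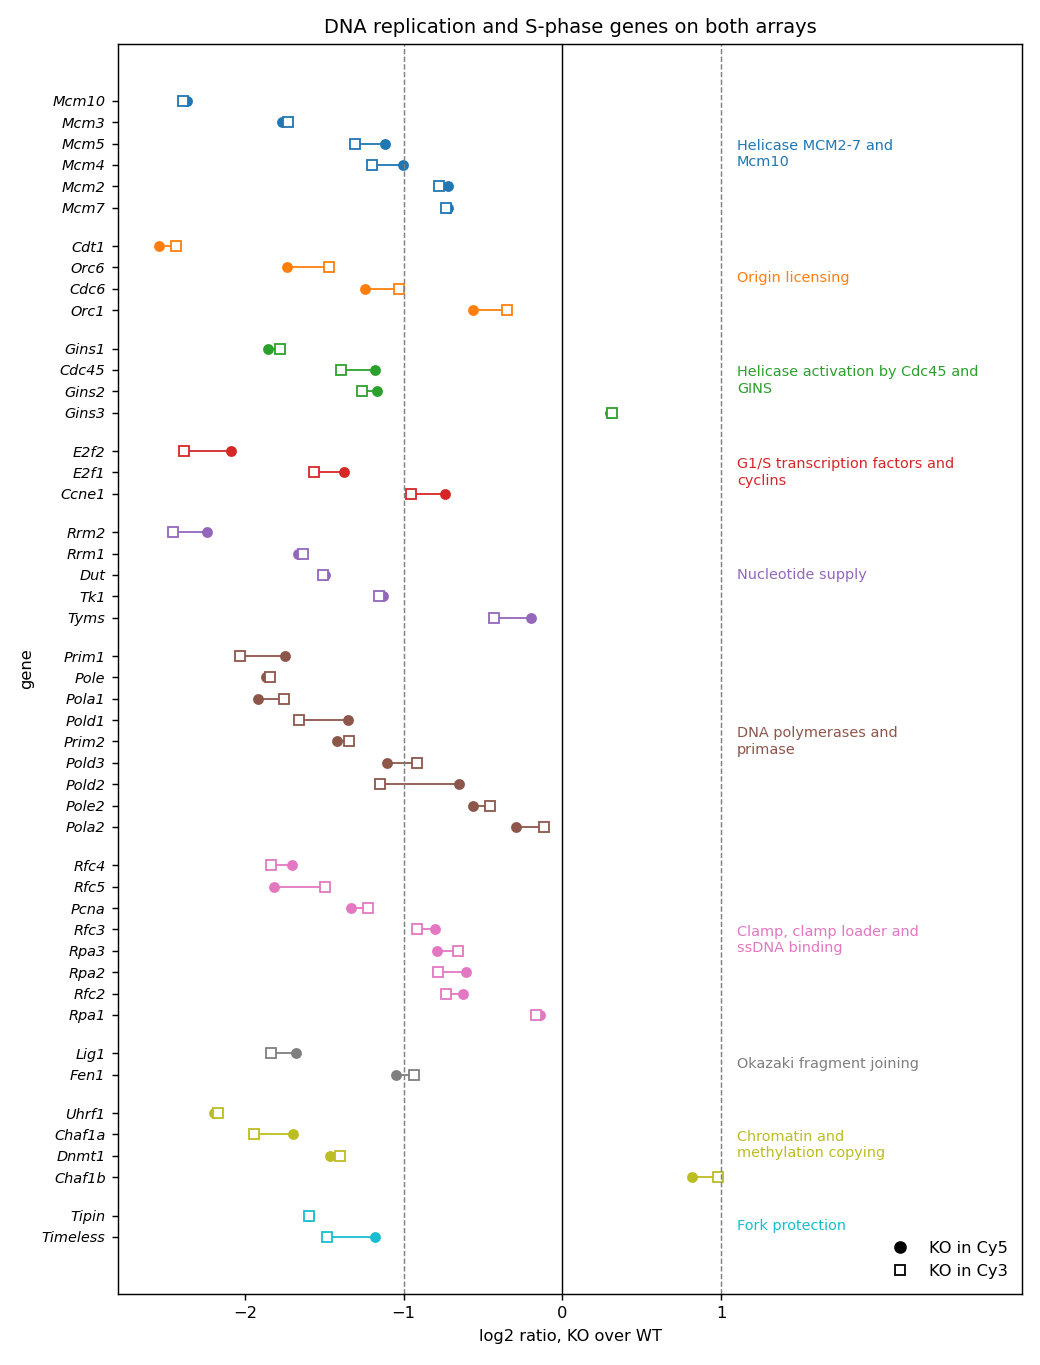
Log2 ratio of KO over WT (horizontal axis) for the 47 measured members (vertical axis), grouped and coloured by role; circles are the array with KO in Cy5, squares the array with KO in Cy3, and dashed lines mark 2-fold. Cdt1 (−2.54 and −2.44), Mcm10 (−2.37 and −2.39) and Rrm2 (−2.24 and −2.45) lie farthest left, and Gins3 and Chaf1b are the members to the right of 0.

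Both arrays gave nearly the same picture. Wherever a pair of ratios is given, KO was in Cy5 for the former and in Cy3 for the latter. The member medians were −1.25 (KO in Cy5) and −1.34 (KO in Cy3), and the median technical SD of a member was 0.09, against 0.11 for all measured genes. Across members, which are not independent replicates and share both extracts, the arrays' ratios correlated with Pearson r = 0.968. Pold2, an accessory subunit of polymerase delta, had the widest technical spread, −0.65 against −1.15 (SD 0.35). Lamtor1 itself, the check of the labels, was 3.86-fold lower (−1.97 and −1.93), with its probe at chr7:109060334-109060393 (mm9) still clearly above background in KO on either array.

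**Figure D2:**
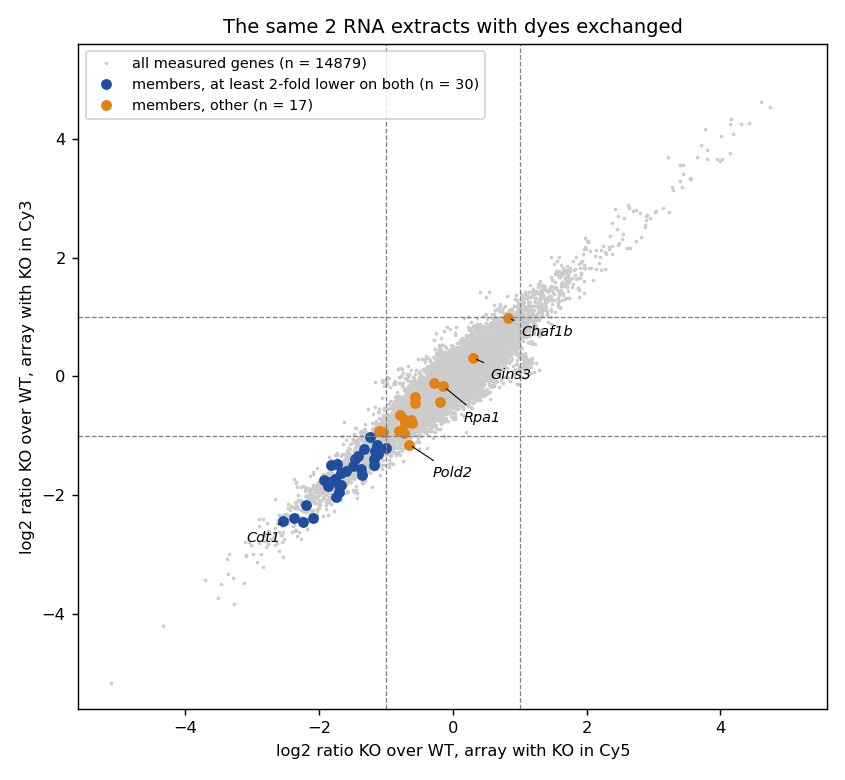
Log2 ratio of KO over WT on the array with KO in Cy5 (horizontal axis) against the array with KO in Cy3 (vertical axis) for 14879 measured genes (grey), the 30 members at least 2-fold lower on both arrays (blue) and the 17 other measured members (orange); dashed lines mark 2-fold. The members run along the diagonal from Cdt1 at the lower left to Chaf1b at the upper right, and Pold2 crosses the 2-fold line on the vertical axis only.

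The promoters of these genes were read for the E2F motif, since the members are known E2F targets as a class. The motif searched was TTNNCGC, each N being C or G, on either strand, with overlapping matches each counted, in windows from 250 bases before to 50 after the gene start (RefSeq, GRCm38.p6). Of 41 members with a window, 26 (63.4%) held at least 1 match, compared with 10.9% of all 27025 genes with a window and 19.4% of the 9215 measured genes among them. The share was 62.5% for the 24 members called lower and 62.5% for the 16 measured members that were not called. Of the 659 measured genes called lower that had a window, 25.8% held a match. The CCAAT box (CCAAT, either strand) stood in 58.5% of member genes against 41.1% of all genes, and the CHR element, searched as TTTGAA on either strand, in 17.1% against 20.2%. Among measured genes these shares were 43.1% for CCAAT and 14.8% for the CHR element, so the member share of the latter lay below that of all genes and above that of measured ones. A match is a description of the sequence and was not tested for binding.

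The following 250 bases before the gene start contrast 3 promoters of called members with that of Chaf1b, which was not lower; each is written from 5′ to 3′ along the gene, with E2F matches in capitals. Rrm2 (chr12:24708004-24708253, plus strand) encodes the small subunit of ribonucleotide reductase, Pola1 (chrX:93632156-93632405, minus strand) the catalytic subunit of polymerase alpha, Mcm5 (chr8:75109259-75109508, plus strand) a helicase subunit and Chaf1b (chr16:93883651-93883900, plus strand) a subunit of the histone chaperone CAF-1.
Rrm2: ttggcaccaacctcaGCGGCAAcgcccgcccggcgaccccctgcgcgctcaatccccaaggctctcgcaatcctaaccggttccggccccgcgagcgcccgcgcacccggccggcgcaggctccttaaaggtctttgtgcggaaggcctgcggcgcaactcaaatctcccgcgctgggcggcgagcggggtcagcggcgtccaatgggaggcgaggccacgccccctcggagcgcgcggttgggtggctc
Pola1: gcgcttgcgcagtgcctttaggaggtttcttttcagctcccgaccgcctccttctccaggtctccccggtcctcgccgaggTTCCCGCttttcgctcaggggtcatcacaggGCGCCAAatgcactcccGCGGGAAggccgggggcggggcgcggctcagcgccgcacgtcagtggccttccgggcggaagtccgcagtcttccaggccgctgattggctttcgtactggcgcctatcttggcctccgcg
Mcm5: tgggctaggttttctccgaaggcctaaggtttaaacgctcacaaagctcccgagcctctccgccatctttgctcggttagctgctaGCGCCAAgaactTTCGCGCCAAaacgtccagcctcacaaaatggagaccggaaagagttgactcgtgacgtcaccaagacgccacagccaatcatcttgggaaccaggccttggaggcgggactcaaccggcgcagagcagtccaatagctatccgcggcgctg
Chaf1b: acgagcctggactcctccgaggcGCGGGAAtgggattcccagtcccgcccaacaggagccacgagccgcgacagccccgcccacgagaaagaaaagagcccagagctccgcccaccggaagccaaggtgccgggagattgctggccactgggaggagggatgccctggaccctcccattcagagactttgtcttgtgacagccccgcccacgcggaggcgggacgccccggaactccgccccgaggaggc
Rrm2 and Chaf1b had 1 match each in these bases and Pola1 and Mcm5 had 3 each, of which a pair overlap in Mcm5. Pola1 and Mcm5 held more matches before the start than any other measured member. Mcm7, which was not called, held 3 matches in 1 of its windows, of which 1 lay before the start. In the searched bases after the start, Chaf1b had a further match at position 27 and Pola1 at position 16. Cdt1 and Mcm3 carried their matches after the start instead. The 28 bases from position 23 to position 50 after the start, counted from 1 at the start, are shown for both because Cdt1 was among the 3 members of lowest ratio and Mcm3 had the lowest mean of the measured ring subunits (Cdt1 chr8:122568037-122568064, plus strand; Mcm3 chr1:20820263-20820290, minus strand).
Cdt1: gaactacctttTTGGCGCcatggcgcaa
Mcm3: ggaaaacttgggaagttTTGGCGCCAAg
The Mcm3 stretch holds 2 overlapping matches and the Cdt1 stretch 1. No match was found in the windows of E2f1, Pcna, Tk1, Dut or Mcm10, all called lower, which says only that these letters are not in those windows.

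Of the origin licensing genes 3 of 4 were called lower. Cdt1, which escorts the MCM ring to origins, had a normalised signal of 1994 in KO and 11612 in WT on the array with KO in Cy5, and of 2049.5 in KO and 11095 in WT on the other. It was 5.61-fold lower (−2.49 ± 0.07), the lowest mean of all members as reported, though with the deposited ratios Mcm10 was lower (−2.58 against −2.47). The signals came from a probe at chr8:125096893-125096952 (mm9). Both KO signals lay far below both WT signals. Orc6, a subunit of the origin recognition complex, had ratios of −1.74 and −1.47, and the loading ATPase Cdc6 had −1.25 and −1.03. The Cdc6 probe was dim, with a mean of −1.14 as reported and −1.99 with the deposited ratios, and another, dimmer one gave −1.38 and −1.10. Orc1, the ATPase subunit of the recognition complex, was not called at −0.57 and −0.35; its probe was dim and well above background in KO on 1 of 2 arrays, and it read −0.87 with an offset of 1 in the background correction and −1.54, past the rule, with the deposited ratios. The other subunits of that complex, named here to complete it, were Orc2 at −0.20, Orc3 at −0.12, Orc4 at 0.23 and Orc5 at −0.37, and none was called.

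The measured MCM genes lay below 0 on both arrays, by unequal amounts. The 6 of them, with Mcm10 counted in, had a median of −1.16, and 4 of them were called. Mcm10, which helps to fire the loaded helicase, had signals of 366 in KO and 1889 in WT with KO in Cy5, and of 358 and 1876 with KO in Cy3. It was 5.20-fold lower (−2.38 ± 0.01). Mcm3 had 1930.1 in KO and 6570.1 in WT, then 1952 and 6459 with the dyes exchanged, and was 3.36-fold lower (−1.75 ± 0.03). Another, largely overlapping probe of its transcript gave −1.71 and −1.83. Mcm5 followed at −1.12 and −1.31, and Mcm4 at −1.003 and −1.20, at the edge of the rule. Mcm2 at −0.72 and −0.78 and Mcm7 at −0.72 and −0.73 were below 0 but not called. Within the same ring, the ratio of Mcm3 minus that of Mcm7 was −1.05 and −0.99, while the technical SD was 0.03 for Mcm3 and 0.01 for Mcm7. Mcm6 was not measured because the scanner software had marked its spot as non-uniform on the array with KO in Cy3; on the other array it read 13087 in KO and 23645 in WT (−0.85), and with the marked spot kept that array gave −0.14.

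Of the factors that turn the loaded ring into an active helicase, Gins1, Gins2 and Cdc45 were called lower. Gins1 was 3.53-fold lower, with signals of 304 in KO and 1098 in WT on the array with KO in Cy5 and of 326 and 1122 on the other. Gins2 had ratios of −1.17 and −1.26 from a dim probe, and its mean of −1.21 became −1.74 with the deposited ratios. Cdc45 had −1.18 and −1.40 from a dim probe that was well above background in KO on 1 of 2 arrays, and its mean of −1.29 became −1.99 with an offset of 1 and −2.37 with the deposited ratios. Gins3, a subunit of the same GINS complex, ran the other way at 0.30 and 0.31, with signals of 2732 in KO and 2215 in WT, then 3526 and 2840.4. That difference of 1.24-fold was not called, and with median centring in place of loess Gins3 read −0.29 where the median of all genes was −0.37. The ratio of Gins1 minus that of Gins3 was −2.16 and −2.10, whereas Gins4, the remaining subunit, was at −0.58 and not called.

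The transcription factors of S-phase entry were lower as well. E2f2, an activating E2F, had signals of 1763 in KO and 7488 in WT with KO in Cy5, and of 1468 and 7687 with KO in Cy3, and was 4.72-fold lower (−2.24 ± 0.21). E2f1, its close relative, had ratios of −1.38 and −1.57. Cyclin E1 (Ccne1), the partner of CDK2 at the G1/S boundary, was at −0.74 and −0.95 and not called, and its other probe at −0.47 and −0.34. Cyclin E2 (Ccne2) was not well above background in either RNA on either array, so no fold is given. Among the E2F genes outside the members, the repressors E2f7 (−1.71) and E2f8 (−2.36) were called lower, while E2f3 (−0.81), E2f6 (−0.42), E2f4 (−0.27) and E2f5 (0.05) were not.

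Enzymes of nucleotide supply had a median of −1.51, and 4 of 5 were called lower. Rrm2 had signals of 1705 in KO and 8049 in WT with KO in Cy5, and of 1400.0 and 7659 with KO in Cy3, a 5.08-fold lower level (−2.35 ± 0.15; probe chr12:25398824-25398883, mm9). Rrm1, the large subunit of the same enzyme, was lower by less, at −1.67 and −1.63. The ratio of Rrm2 minus that of Rrm1 was −0.57 and −0.82. Dut, which removes dUTP, was at −1.50 and −1.51, and thymidine kinase Tk1 at −1.13 and −1.16. Thymidylate synthase (Tyms) was not called at −0.20 and −0.43, from a dim probe that was well above background in KO on 1 of 2 arrays; its mean was −0.31 as reported, −0.65 with an offset of 1 and −1.26 with the deposited ratios, which did not meet the rule.

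In each replicative polymerase the catalytic subunit had a lower ratio than its accessory subunits, primase set aside. The probes of Pola2, Pole2 and Pold2 were also dimmer, at mean log2 intensities of 6.85, 8.38 and 8.74. Those of Pola1, Pole and Pold1 were at 9, 10.36 and 10.88, and the part of intensity in these gaps was not tested. Pola1, the catalytic subunit of polymerase alpha, was at −1.92 and −1.75, and its partner Pola2 at −0.29 and −0.12. The ratio of Pola1 minus that of Pola2 was −1.63 on either array, but the Pola2 probe was dim; with the deposited ratios Pola2 read −0.47 and Pola1 −2.03. Pole, the leading-strand enzyme, had signals of 703 in KO and 2569 in WT, then 676 and 2431 with the dyes exchanged (3.62-fold lower), whereas Pole2 was at −0.56 and −0.45. Pold1, the lagging-strand enzyme, was called lower at a mean of −1.51; Pold2 at −0.65 and −1.15 and Pold3 at a mean of −1.01 were not called. The small subunits outside the members were Pole3 at −0.71, Pole4 at −0.36 and Pold4 at −0.59. The primase subunits were both called: Prim1, which makes the primer, at −1.75 and −2.03, and Prim2 at a mean of −1.38. The other Pole probe was not well above background in either RNA.

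The clamp, its loader and the single-strand binding proteins had the highest median of the roles, −0.79, and 3 of 8 were called lower. Pcna, the sliding clamp, had signals of 3709 in KO and 9345 in WT with KO in Cy5, and of 3794 and 8856 with KO in Cy3, and was 2.43-fold lower (−1.28 ± 0.08). The clamp loader was uneven. Rfc4 was at −1.70 and −1.83 and Rfc5 at −1.82 and −1.50, while Rfc2 was at −0.62 and −0.73, Rfc3 at a mean of −0.86, and the large subunit Rfc1, outside the members, at −1.33 and −0.88; the last 3 were not called. The trimer that coats single-stranded DNA was not called in any subunit. Rpa2 was at −0.61 and −0.78, Rpa3 at a mean of −0.72, and Rpa1, its large subunit, at −0.14 and −0.17 from signals of 7542 in KO and 8316 in WT, then 7347 and 8258.5. The other Rpa1 probe gave 0.11 and 0.19, so the direction of Rpa1 depended on the probe.

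Of the genes that join Okazaki fragments, DNA ligase Lig1 was 3.38-fold lower (−1.68 and −1.84). The flap nuclease Fen1 was at −1.05 and −0.93, which misses the 2-fold limit when KO was in Cy3. The fork protection partners Tipin and Timeless were both called, at −1.60 and −1.59 for Tipin and at −1.18 and −1.49 for Timeless.

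Factors that copy chromatin and DNA methylation behind the fork included both a strongly lower and the highest member. Uhrf1, which recognises hemimethylated DNA, had signals of 976 in KO and 4468 in WT with KO in Cy5, and of 1167 and 5255 with KO in Cy3, and was 4.54-fold lower (−2.18 ± 0.02). The other, dim Uhrf1 probe gave −0.85 and −0.80. Dnmt1, the methyltransferase that Uhrf1 recruits, was at −1.46 and −1.40. The histone chaperone CAF-1 was split: Chaf1a, its large subunit, was at −1.70 and −1.94, and Chaf1b at 0.82 and 0.98. Chaf1b had signals of 3730.3 in KO and 2113 in WT, then 4112 and 2082 with the dyes exchanged (1.87-fold higher; probe chr16:93906219-93906278, mm9). Its other probe gave 0.88 and 0.74, and with median centring the probe used read 0.31 where the median of all genes was −0.37. The ratio of Chaf1a minus that of Chaf1b was −2.52 and −2.92.

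Of the 9 members with a further probe, 8 had it above background, and in 7 of these it lay in the direction of the probe used on both arrays, Rpa1 being the exception. The probes of Mcm3 share most of their bases, so they are close to a single reading, and those of Chaf1b overlap at their ends. Probes were not checked for binding to related genes or pseudogenes. Dim probes gave smaller ratios: the 37 members of mean log2 intensity 9 or more had a median of −1.51 with 27 called, and the 10 below had −0.78 with 3 called. With a smaller offset in the background correction these medians were −1.55 and −0.94, and the part of intensity in the remaining gap was not tested. Rrm1 and Pold3 lie within 3 Mb of Lamtor1 on chromosome 7, where 63 measured genes, both members included, had a median of −0.37. Of these 63, 10 were called lower, while of all measured genes 6.88% were, with a median of −0.02. Without both members, 29 of 45 members were called and the members' median stayed at −1.29.

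Other genes of replication, from lists that hold no member, were lower less uniformly. For helicase loading and origin firing, 5 of 17 measured genes were called lower (median −0.63), led by the helicase Recql4 at −2.11, the firing factor Ticrr at −1.89 and Gmnn, which encodes the licensing inhibitor geminin, at −1.69. Of the further replisome and clamp loader genes, 6 of 20 were called (median −0.67), with the clamp unloader Atad5 at −1.71 and the alternative loader subunits Chtf18 at −1.66 and Dscc1 at −1.50. In the list of dNTP supply and clearance 2 of 16 were called (median −0.25), among them Dctpp1, a dCTP pyrophosphatase, at −1.10. No gene of these lists was called higher. Of all measured genes, 6.88% were called lower and 2.46% higher.

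The switch that controls S-phase entry had 11 of 30 genes called lower and 0 higher (median −0.55), beside 6.88% lower and 2.46% higher among all measured genes. The lowest were the CDK inhibitor Cdkn1a at −2.72, cyclin A2 (Ccna2) at −2.48 and E2f8. The called genes hold brakes as well as drivers of the cell cycle: Cdkn2c (−1.63) and Cdkn2d (−1.07) encode inhibitors of CDK4 and CDK6, and Rb1 (−1.42) and Rbl1 (−1.57) encode proteins that restrain E2F. Myc (−0.18), Cdk2 (−0.40), Cdk4 (0.07) and Cdk6 (−0.51) were not called. For replication-coupled chromatin 9 of 20 were called (median −1.002), with the PCNA-linked ubiquitin ligase factor Dtl at −2.53, the cohesin regulator Cdca5 (sororin) at −2.49 and the cohesin acetyltransferase Esco2 at −1.58. For the replication checkpoint and fork repair 13 of 30 were called (median −0.89), with the nuclease Exo1 at −2.11 and Brca2 at −2.04 among the lowest.

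Genes of mitosis, which follows S and G2, had a lower median than the replication members: 30 of 31 were called lower, 0 were higher, and the median was −2.10. Its lowest genes were Top2a at −2.84, Nusap1 at −2.69 and Ube2c at −2.63, and Ttk, at least 1.68-fold lower, was the gene not called. Among all measured genes 6.88% were called lower. The mitosis list had quartiles of −2.45 and −1.90, beside −1.75 and −0.80 for the replication members. With 1 extract per genotype the difference between these lists was not tested.

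**Figure D3:**
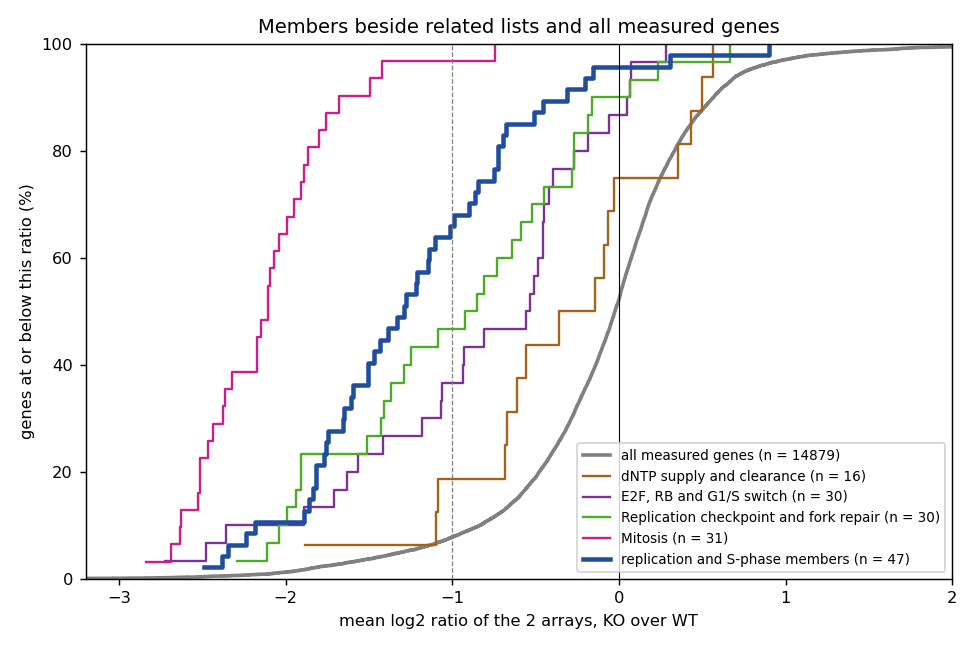
Share of genes (vertical axis, %) at or below a given mean log2 ratio of KO over WT (horizontal axis) for the 47 measured members (thick blue), 4 related lists and all 14879 measured genes (grey); the dashed line marks 2-fold lower. The median is −1.29 for the members, −2.10 for the mitosis list and −0.25 for the list of dNTP supply and clearance, and at the right the members' curve ends at Chaf1b (0.90).

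Markers of other cell types also differed between the extracts. The shares among all measured genes were 6.88% called lower and 2.46% called higher. Of 9 CD4 T cell markers, all measured, 3 were called lower and 0 higher (median −0.49), with Cd4 at −1.18 and Cd3e at 0.09. Of 10 markers of NK cells, CD8 T cells and gamma-delta T cells, 8 were measured and 5 were called higher, among them Klrd1 at 1.78 and Klrc1 at 1.80. Klra8, Klrb1c and Tyrobp, also called, were not well above background in WT on either array. They have only bounds, at least 2.26-fold, 2.18-fold and 4.30-fold higher. The median of 1.27 and the upper end of the range, −0.55 to 2.14, rest on these dim WT signals. The CD8 coreceptor genes Cd8a (0.67) and Cd8b1 (−0.55) lay on opposite sides of 0, and neither they nor Eomes (0.75) were called. Ncr1 was not well above background on both arrays in either RNA. Of 12 myeloid and dendritic markers, 10 were measured, 4 were called higher and 1 lower (median 0.76), with Fcer1g at 4.35. The gene called lower was H2-Ab1 at −1.90, and Cst3 at −0.49 was not called. Lyz1 and S100a8, also called higher, were not well above background in WT on either array and were at least 2.97-fold and 4.92-fold higher. Itgax and Cd14 were not well above background on both arrays in either RNA. Of 8 B cell markers 2 were measured and none was called, and Cd79a, Ms4a1 and Pax5 were likewise not measured; of 7 erythroid and platelet markers 1 was measured, Hbb-bt, at least 2.47-fold lower. Their part in the members' ratios was not tested.

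Across the alternatives from 26 to 40 members were called lower, the highest count being that of the 1.5-fold limit. In the 11 alternatives with the 2-fold limit that kept the genes near Lamtor1, 26 of the 30 called members were called wherever they were measured. Several of these could not remove a call. Either array alone asks for less than both. The filters on dim probes and the kept outlier spots left the ratios of the called members as they were. The deposited ratios gave the same member ratios as the processed signals. Median centring in place of loess shifted the median of all genes to −0.37; relative to that the members' median was −1.45, compared with −1.27 as reported. It also moved the split of all calls from 73.7% lower to 88.8% lower, and it left Mcm4, Mcm5, Gins2 and Tk1 without a call. Their mean ratios were then farther below 0 (−1.70, −1.80, −1.52 and −1.66), but with KO in Cy5 each was short of 2-fold (−0.81, −0.93, −0.98 and −0.96). With KO in Cy3 the same genes were at −2.59, −2.66, −2.05 and −2.36. The scanner software's own ratios gave 32 members lower with a median of −1.52.

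**Figure D4:**
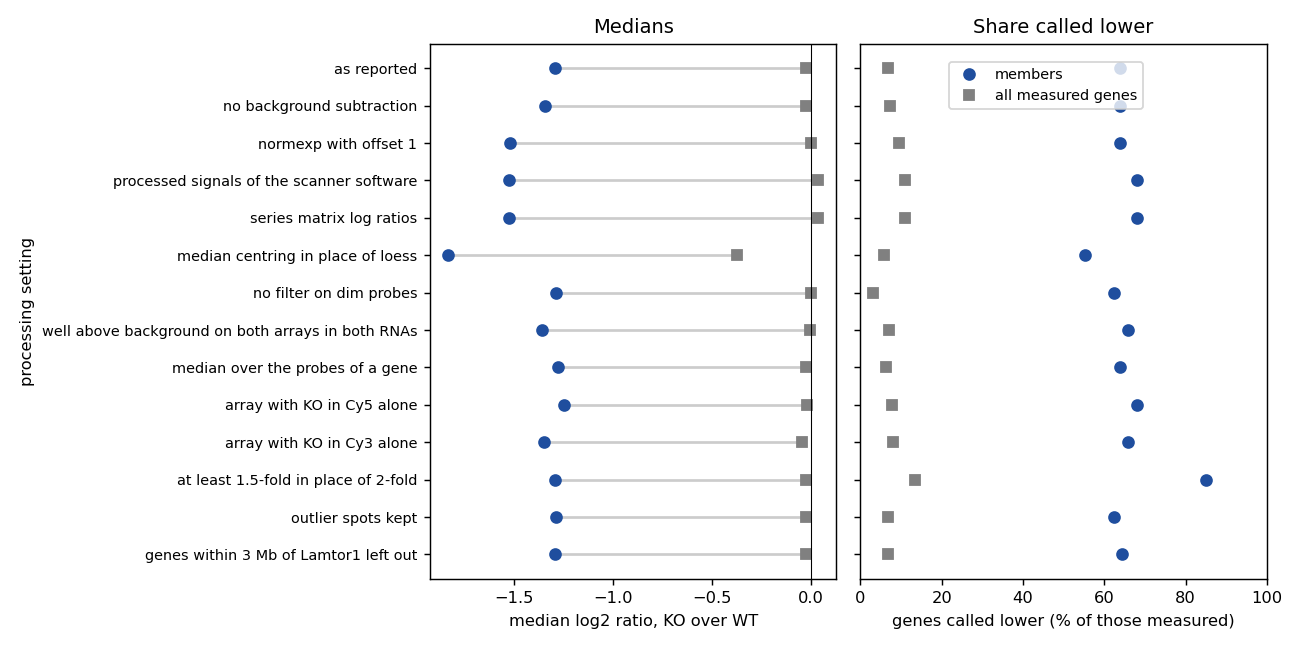
Median log2 ratio of KO over WT (left, horizontal axis) and share of measured genes called lower (right, horizontal axis, %) under each processing setting (vertical axis), for the members (blue circles) and all measured genes (grey squares). The members' median runs from −1.83 with median centring to −1.25 on the array with KO in Cy5, and lies below that of all genes under each setting.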

How the data were processed

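Gene expression was measured on 2 Agilent 4 x 44K mouse arrays of 1 pair of extracts, labelled samples of 400 ng cRNA hybridised at 65 °C for 17 h, per the labels' protocols. The deposited scanner files hold, per the file headers, spot mean and local background intensity per channel, uncorrected, and intensity processed by Agilent Feature Extraction; its version is 10.7.3.1 per the file headers and 10.5.1.1 per the submitters' processing notes. The deposited value table holds log10 ratios of Cy5 over Cy3, and its 44397 values an array were identical to the log10 ratios in the scanner files within a tolerance of 1e-09. Its columns had a median of 0.

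Mean signals were background-corrected by normexp (offset 50) and normalised by loess within each array in limma 3.58.1 under R 4.3.3 (version 1.17.8 of data.table), with control spots at weight 0. Control spots (1377 per array) and outlier spots (206 where KO was in Cy5, 214 where it was in Cy3) were then left out, and 0 spots were saturated. Repeat spots were averaged, each ratio was written as KO over WT from the dyes in the labels, and both arrays were averaged as 1 replicate. Signals quoted are linear intensities after loess and Aquantile normalisation and include the offset, which shrinks the ratios of dim probes. Of non-control spots, 51.7% (KO in Cy5) and 43.7% (KO in Cy3) were well above background in KO, and 48.4% and 48.8% in WT; the number of arrays limits the precision. The script was tested on simulated data.

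A gene not well above background in 1 RNA has only a bound ("at least N-fold"): the mean of the brighter RNA over a floor, which on each array is the dim probe's own signal or, if greater, the dimmest signal of any probe clearly above background. Of 39429 probes, 26055 were named by accession, 3195 by symbol and 930 by synonym through RefSeq's gene table (GRCm38.p6), and 9249 kept the file's name. Probe positions are in mm9, as in the files; promoters, 32851 windows, are RefSeq's on GRCm38.p6, and 41 of 49 members matched by symbol. Figures used Python 3.11.15, pandas 2.3.3 and matplotlib 3.10.9.

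The members, lists, markers and rules were chosen with earlier results of these data known. The naming rule was: every member at least once, with both array values for the 3 lowest and 3 highest of a role of 4 or more genes and for all genes of smaller roles; the 3 lowest called genes of each related list and any called higher, at most 5; and Lamtor1. A few genes that the rule would name are not reported here. Remaining subunits of a complex, further E2F genes, CDKs, Myc, the CDK inhibitors and RB genes and single markers were named after their values were seen.

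Alternatives were no background subtraction, offset 1, the processed signals, the deposited log ratios, median centring, 2 other filters on dim probes, the median over probes, either array alone and a 1.5-fold rule. Keeping outlier spots and leaving out genes near Lamtor1 were added after the data were seen.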

Additional observations from a re-analysis of the deposited data

How the results depend on the processing

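No paired analysis was possible because each genotype gave only 1 RNA extract. The calls are a rule of size on 2 technical arrays, so neither the spread between animals nor a p-value stands behind any of them. The probes of Orc1, Tyms, Cdc45, Cdc6, Pola2 and Ccne2 were the dimmest of the members. Those of Gins2, Rfc3, Pole2, Pold2 and Rpa2 also lay below a mean log2 intensity of 9.

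The members' median of −1.29 was −1.52 with an offset of 1, −1.52 with the processed signals and with the deposited log ratios alike, and −1.83 with median centring. Of all genes, 1024 were called lower and 366 higher. The processed signals and the deposited log ratios gave 1617 lower and 868 higher, an offset of 1 gave 609 higher, median centring 111 higher, and the array with KO in Cy5 alone 556 higher. With a limit of 1.5-fold, 2008 genes were lower, 1009 were higher and 1 member was higher. The construction of that rule and of the single array, which ask for less, admits more genes. Median centring left the median of all genes at 0.15 with KO in Cy5 and at −0.97 with KO in Cy3. For the settings other than that rule and the single array the cause was not tested.

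No member called lower changed sign under any of these alternatives, several of which could not change it by construction. Mcm4 lost its call with an offset of 1 (−1.07, less than 2-fold on 1 array) and with median centring, as did Mcm5, Gins2 and Tk1 with the latter, though the mean ratios of all 4 were then farther below 0 (−1.70, −1.80, −1.52 and −1.66): with KO in Cy5 each fell short of 2-fold. Of the 17 members not called, 5 were called lower in some alternative: Orc1, Rfc3, Pold2, Pold3 and Fen1. Keeping the outlier spots, added after seeing the data, measured 48 members and called 30.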
